A study of Mus musculus with 4 samples.

Results

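The genes described here encode 9 enzymes that make serine and pass its carbon into the folate cycle: *Phgdh*, *Psat1*, *Psph*, *Shmt1*, *Shmt2*, *Mthfd1*, *Mthfd2*, *Mthfd1l* and *Mtr*. They were taken by gene symbol, and all 9 were found among the 24346 genes listed. *In vitro* MDSCs are immature myeloid cells grown from the bone marrow of C57BL/6J mice, which in this study were female and aged 6 to 8 weeks. Both groups were cultured for 4 days with 40 ng/ml GM-CSF, either without G-CSF (Control, n = 2 libraries) or with G-CSF as well at 5 ng/ml (G-CSF, n = 2 libraries). The RNA came from whole cultures, in which precursors, neutrophil-like and monocyte-like cells are mixed, and the number of mice behind each library is not given. Expression was read as FPKM (fragments scaled to transcript length and to the size of the library), so that levels of different genes can be set side by side.

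Cells obtain serine from the medium or make it from a glycolytic intermediate in a short chain of reactions catalysed by PHGDH, PSAT1 and PSPH. Serine hydroxymethyltransferases then split serine into glycine and a carbon unit carried by tetrahydrofolate, with SHMT1 in the cytosol and SHMT2 in mitochondria. The MTHFD enzymes interconvert the folate-bound units and release or capture formate, and the units are used for purine rings, for thymidylate and, through methionine synthase (MTR), for methionine. Dividing cells are known to depend on this supply, and the transcription factors ATF4 and MYC are known to regulate several of these genes.

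From the steps of low values, the libraries were estimated to hold 13.4 and 14.15 M mapped reads in Control and 12.45 and 15.7 M with G-CSF. At this depth each enzyme gene held at least 170 estimated reads in every library. *Itgam*, which encodes CD11b, stood between 515 and 520 FPKM in Control and between 395 and 416 FPKM with G-CSF. This was a fall (log2 fold change -0.35, adjusted p = 0.0146 from limma). *Ly6c2* stood between 1000 and 1148 FPKM over the 4 libraries, and both are defining markers of the labelled cell type. *Ly6c1*, from the same list of markers, was far lower, between 9.70 and 11.6 FPKM. *Ly6g* was not found under this symbol among the genes listed, so its level could not be read. The extraction note in the labels speaks of liver, but the hepatocyte genes *Alb*, *Apoa1* and *Ttr* were listed at 0 in every library and *Serpina1a* did not exceed 0.169 FPKM.

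With G-CSF, 8 of the 9 enzyme genes were upregulated, by 1.21-fold to 1.57-fold, and no member fell. The summed level of the 9 genes was 344 and 364 FPKM in Control and 500 and 506 FPKM with G-CSF. Both G-CSF values lay above both Control values in all 9 genes, a separation seen in the same direction in 34% of the 11717 genes tested. An adjusted p under 0.05 was reached by 20.2% of the genes tested, by 10.9% for a rise (limma with Benjamini-Hochberg adjustment over all of them). The median log2 fold change of the enzyme genes was 0.57, against 0.0056 for all genes tested. The enzyme genes were chosen with earlier results of these data known, so that this contrast is descriptive only. The study itself applied stricter thresholds, which also ask for a fold change over 2, with BioJupies tools, so that its own calls can differ. None of the 9 passed these thresholds in the limma fit, and 0.435% of the genes tested met them for a rise. The calls depend on limma modelling the variance as a trend with expression and on having all 4 libraries. Without the trend, the adjusted p-values of the 8 genes were 0.0613 to 0.0826, and with any library left out they were 0.0665 to 0.147, so that 0 of the 9 passed (8 at an unadjusted p under 0.05 in each of these fits) and 27 genes in all and between 32 and 50 genes, respectively, were called.

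**Figure D1:**
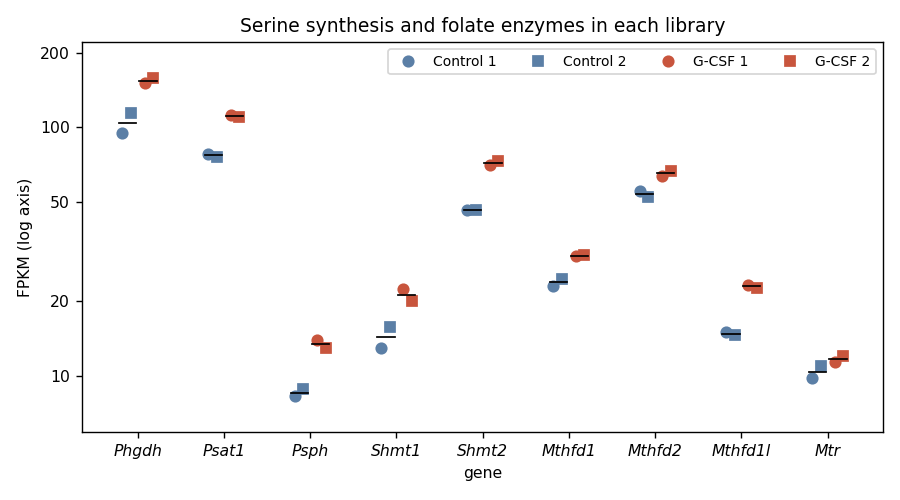
FPKM (log axis) of the 9 enzyme genes in each library, with Control in blue, G-CSF in red, circles for replicate 1, squares for replicate 2 and a black line at each group mean (n = 2). Red points lie above blue points in every gene, and the levels run from 8.31 FPKM for *Psph* in Control to 158 FPKM for *Phgdh* with G-CSF.

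Other groups of genes moved in the same libraries, in which 10.9% of all genes tested were called higher and 9.27% lower. All 5 markers of neutrophil precursors (*Mpo*, *Elane*, *Prtn3*, *Ctsg*, *Ms4a3*) rose, with a summed level of 838 to 965 FPKM in Control and 2111 to 2246 FPKM with G-CSF. Of 9 markers of maturing neutrophils, 6 fell and 0 rose, with sums of 66718 to 77100 FPKM and 51543 to 51658 FPKM. Most of these sums came from *S100a8*, which was not called (adjusted p = 0.0577 from limma), and *S100a9*. The log2 fold changes of the 9 ran from -1.81 to -0.098. Of 15 proliferation markers, 14 rose, with a median log2 fold change of 0.34 and sums of 1258 to 1261 FPKM and 1548 to 1594 FPKM. Markers of macrophages (2 of 5 lower), dendritic cells (3 of 6), mast cells or basophils (3 of 5) and eosinophils (2 of 3) also fell in part, and none of these lists held a called rise. Without the filter on low values the calls dropped to 4 for maturing neutrophils and to 0 for macrophages and eosinophils. Those for dendritic cells dropped to 1 and those for mast cells or basophils to 2. The part of these shifts in the change of the enzyme genes was not tested. In RNA from mixed cells, more cells of a type and more RNA per cell cannot be told apart.

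All 3 serine synthesis genes rose, and together they held more than the other 6 genes in FPKM. *Phgdh*, the first enzyme of the chain, stood at 94.8 and 114 FPKM in Control, against 151 and 158 FPKM with G-CSF. The Control values were further apart than those with G-CSF, yet the groups did not overlap. Its log2 fold change was 0.57 (standard error 0.0935, 95% interval 0.33 to 0.81, adjusted p = 0.0214 from limma). *Phgdh* lies on the minus strand of chromosome 3 of GRCm38 (98313170 to 98339990), with 12 exons in its principal transcript. Its level is uncertain, because 35.8% of the 75-base windows of its transcripts also occur in transcripts of other annotated genes, mainly *Gm7901*. That gene was not found under this name among the genes listed.

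*Psat1*, the aminotransferase of the second step, stood at 78.4 and 76.2 FPKM in Control, against 112 and 110 FPKM with G-CSF. The replicates lay close together in both groups. The log2 fold change of 0.52 had a standard error of 0.0418 (95% interval 0.42 to 0.63, adjusted p = 0.00909 from limma). *Psat1* lies on the minus strand of chromosome 19 (15904678 to 15947337, 9 exons), and 0.0% of its windows are shared. *Psph*, the phosphatase of the last step, was far lower, with 8.31 and 8.86 FPKM in Control and 14.0 and 12.997 FPKM with G-CSF. Its log2 fold change was 0.65 (standard error 0.0745, 95% interval 0.46 to 0.84, adjusted p = 0.0137 from limma), and ranked 217 of the 11717 genes tested by fold change. About 170 and 191 reads lay behind the Control values, against 266 and 311 with G-CSF. *Psph* (chromosome 5, 129765558 to 129787449, minus strand, 8 exons) overlaps *Cct6a* on the opposite strand and shares 8.1% of its windows with it. *Cct6a* itself stood at 108 and 113 FPKM in Control and 144 and 141 FPKM with G-CSF, and whether reads were assigned by strand is not given in the sources used here.

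Both serine hydroxymethyltransferase genes rose. *Shmt2*, the mitochondrial enzyme, stood at 46.4 FPKM in both Control libraries and at 71.0 and 73.3 FPKM with G-CSF. Its log2 fold change of 0.63 had a 95% interval of 0.52 to 0.74 (adjusted p = 0.00737 from limma). The gene is on the minus strand of chromosome 10 (127517123 to 127522444, 12 exons). *Shmt1*, the cytosolic enzyme, stood at 12.974 and 15.7 FPKM in Control, against 22.4 and 20.1 FPKM with G-CSF. Its replicates differed more than those of *Shmt2*, and its log2 fold change of 0.57 had a wider interval (0.28 to 0.85, standard error 0.113, adjusted p = 0.0302 from limma). *Shmt1* lies on the minus strand of chromosome 11 (60788104 to 60811718, 12 exons), and 2.7% of its windows are shared with the neighbouring *Smcr8*.

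All 3 MTHFD genes rose. *Mthfd1l*, the mitochondrial enzyme that releases formate, stood at 15.0 and 14.7 FPKM in Control, against 23.3 and 22.6 FPKM with G-CSF. Its log2 fold change was 0.62 (standard error 0.0539, 95% interval 0.49 to 0.76, adjusted p = 0.0103 from limma). *Mthfd1*, the cytosolic enzyme that takes formate back into the folate pool, stood at 23.2 and 24.6 FPKM in Control, against 30.3 and 30.7 FPKM with G-CSF. Its log2 fold change of 0.35 had a 95% interval of 0.22 to 0.49 (adjusted p = 0.0185 from limma). *Mthfd2*, the mitochondrial dehydrogenase and cyclohydrolase, was the most abundant of the 3, with 55.5 and 52.6 FPKM in Control and 64.0 and 66.7 FPKM with G-CSF. The log2 fold change of *Mthfd2* was 0.27 (95% interval 0.14 to 0.40, adjusted p = 0.0261 from limma), and 86.2% of the genes tested had a lower fold change. *Mthfd1l* lies on chromosome 10 (3973118 to 4167081, plus strand, 28 exons), *Mthfd1* on chromosome 12 (76255298 to 76319803, plus strand, 28 exons) and *Mthfd2* on chromosome 6 (83305691 to 83325908, minus strand, 8 exons), and 0.0% of the windows of each are shared.

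*Mtr*, which uses a folate-bound methyl group to remake methionine from homocysteine, did not pass the test. It stood at 9.87 and 11.0 FPKM in Control, against 11.4 and 12.1 FPKM with G-CSF. The groups did not overlap, but the gap between them was smaller than the gap between the Control replicates. Its log2 fold change of 0.17 had a 95% interval of -0.039 to 0.37 (adjusted p = 0.198 from limma), so that a rise of the size seen in *Mthfd2* lies within it and that of *Shmt2* does not. *Mtr* is on the minus strand of chromosome 13 (12182712 to 12258113, 33 exons).

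**Figure D2:**
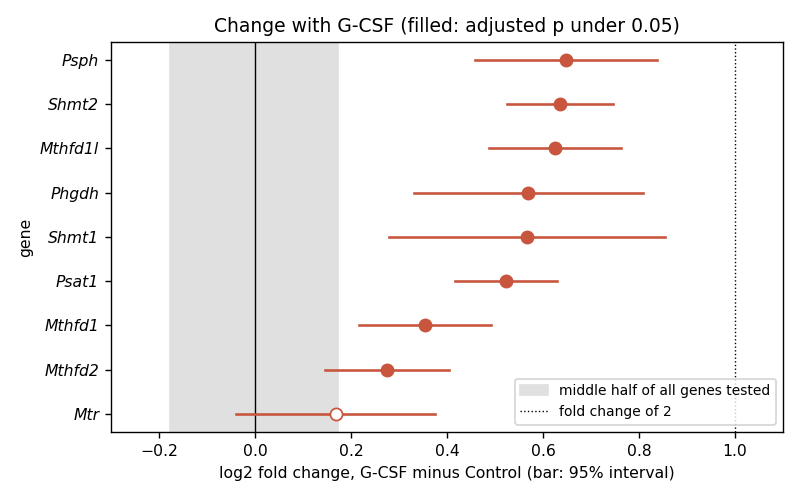
Log2 fold change of each enzyme gene, G-CSF minus Control, with its 95% interval from limma (n = 2 libraries a group), filled points for an adjusted p under 0.05, a grey band for the span from the 25th to the 75th percentile of all genes tested and a dotted line at a fold change of 2. The intervals of *Psph*, *Shmt2*, *Mthfd1l*, *Phgdh*, *Shmt1*, *Psat1* and *Mthfd1* lie above the band, that of *Mthfd2* starts inside it at 0.14, and that of *Mtr* includes 0.

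The order of the levels was nearly the same in both groups. *Phgdh* and *Psat1* were highest in each, at 104 ± 13.7 and 77.3 ± 1.52 FPKM (SD, n = 2) in Control and at 154 ± 4.65 and 111 ± 1.67 FPKM (SD, n = 2) in G-CSF. In Control, *Mthfd2* and *Shmt2* followed, then *Mthfd1*, *Mthfd1l*, *Shmt1*, *Mtr* and *Psph*. The ranges of *Mthfd1l* and *Shmt1* overlapped, and those of all other neighbours in this order did not. With G-CSF, *Shmt2* stood above *Mthfd2* and *Psph* above *Mtr*, and no neighbours overlapped. The 3 serine synthesis genes held 52.7% and 54.7% of the summed FPKM of the 9 genes in Control and 55.5% and 55.4% with G-CSF. The mitochondrial genes *Shmt2*, *Mthfd2* and *Mthfd1l* held 34.0% and 31.2%, then 31.7% and 32.1%, and the cytosolic genes *Shmt1*, *Mthfd1* and *Mtr* 13.4% and 14.1%, then 12.8% and 12.4%. The shares were not tested, and for serine synthesis the Control replicates lay further apart than Control replicate 2 lay from either G-CSF library.

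Ratios of the FPKM of 2 genes within a library do not depend on how libraries are scaled. Log2 ratios were taken after adding 0.1 FPKM to each gene, so that they depend on it very slightly. These log2 ratios were tested by an exact two-sided permutation test over the 4 libraries, which cannot give a p below 0.33. *Shmt2* stood at 3.58 and 2.95 times the level of *Shmt1* in Control, against 3.16 and 3.66 times with G-CSF. The groups overlapped, with a difference in log2 ratio of 0.069 (exact permutation p = 0.67). The ratio of *Mthfd1l* to *Mthfd1* was 0.649 and 0.597 in Control, against 0.769 and 0.736 with G-CSF. Here the groups did not overlap, with a difference in log2 ratio of 0.27 (exact permutation p = 0.33). *Mthfd2* stood at 2.40 and 2.14 times *Mthfd1* in Control, against 2.11 and 2.17 times with G-CSF, and these ranges overlapped (difference in log2 ratio -0.080, exact permutation p = 0.67).

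The pairs that changed places were chosen after their order had been seen and are given with no test. The ratio of *Mthfd2* to *Shmt2* was 1.20 and 1.13 in Control, against 0.902 and 0.910 with G-CSF, a difference in log2 ratio of -0.36. The ratio of *Psph* to *Mtr* was 0.841 and 0.804 in Control, against 1.23 and 1.08 with G-CSF, a difference in log2 ratio of 0.48. In both pairs the groups did not overlap.

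**Figure D3:**
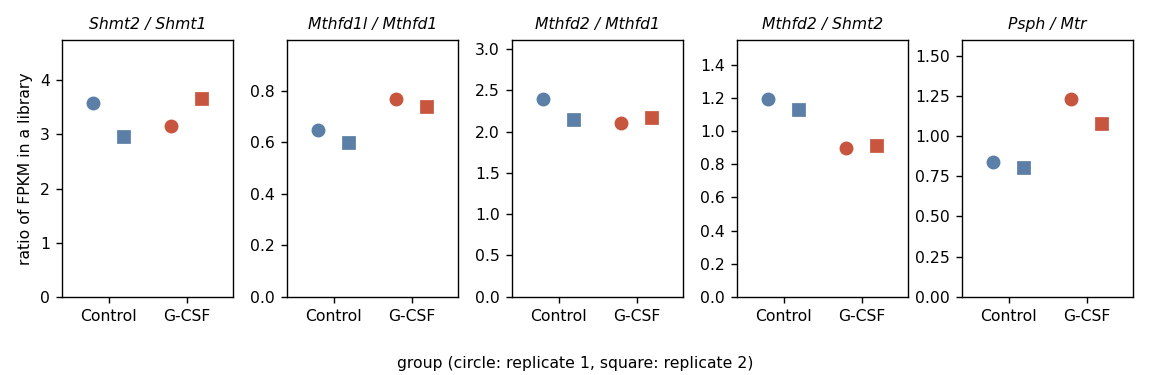
Ratio of the FPKM of 2 enzyme genes in each library, with Control in blue, G-CSF in red, circles for replicate 1 and squares for replicate 2. Groups overlap for *Shmt2* to *Shmt1* and *Mthfd2* to *Mthfd1*, whereas *Mthfd2* to *Shmt2* falls from above 1 to below 1 and *Psph* to *Mtr* passes from below 1 to above 1.

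Of 9 further genes of the mitochondrial folate pathway and the glycine cleavage system, 7 were tested and 1 rose, against 10.9% of all genes tested. *Sfxn1*, which encodes the carrier that brings serine into mitochondria, went from 38.4 and 39.6 FPKM in Control to 50.2 and 51.7 FPKM with G-CSF (log2 fold change 0.39, adjusted p = 0.0140 from limma). *Slc25a32*, a mitochondrial folate carrier, had a log2 fold change of 0.31 (adjusted p = 0.0658), and the lipoamide dehydrogenase gene *Dld* and the glycine cleavage gene *Gcsh* had 0.20 each (adjusted p = 0.05001 and 0.169). *Gldc*, the glycine decarboxylase of the same system, did not exceed 0.042 FPKM.

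In the cytosolic folate cycle and folate uptake, 9 of 12 genes were tested, 2 rose and 2 fell, against a background of 10.9% higher and 9.27% lower. *Slc19a1*, the reduced folate carrier of the plasma membrane, stood at 8.40 and 10.3 FPKM in Control, against 13.9 and 13.4 FPKM with G-CSF (log2 fold change 0.56, adjusted p = 0.0291 from limma). *Ggh*, the lysosomal hydrolase that removes glutamates from folate, fell from 65.1 and 70.4 FPKM to 47.3 and 53.4 FPKM (log2 fold change -0.43, adjusted p = 0.0252). *Mthfs*, which returns 5-formyltetrahydrofolate to the pool, also fell (log2 fold change -0.46, adjusted p = 0.0256). The log2 fold change of thymidylate synthase *Tyms* was 0.21 and did not pass (adjusted p = 0.0863).

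In the list of the methionine cycle, cobalamin handling and transsulfuration, 10 of 16 genes were tested, 2 rose and 1 fell. Of all genes tested, 10.9% were higher and 9.27% lower. *Ahcy*, which clears S-adenosylhomocysteine, stood at 17.2 and 17.1 FPKM in Control, against 26.2 and 23.9 FPKM with G-CSF (log2 fold change 0.54, adjusted p = 0.0139 from limma). *Mat2a*, which makes S-adenosylmethionine, rose by a log2 fold change of 0.32 (adjusted p = 0.0148), and the related *Ahcyl2* fell by 0.37 on the log2 scale (adjusted p = 0.0326). The log2 fold change of *Mmadhc*, a cobalamin carrier, was 0.18 (adjusted p = 0.0555). The transsulfuration genes *Cbs* and *Cth*, through which serine can feed cysteine, were at most 0.214 and 0.454 FPKM in any library and were not tested.

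All 6 genes of *de novo* purine synthesis, the pathway that takes up formyl groups from folate, were tested and all 6 rose. A rise was called in 10.9% of all genes tested. The median log2 fold change of the 6 was 0.39, although 4 were called without the filter on low values. *Ppat*, the first step, went from 11.1 and 10.8 FPKM to 15.7 and 16.1 FPKM (log2 fold change 0.54, adjusted p = 0.0132 from limma). *Pfas*, *Gart* and *Paics* rose by log2 fold changes of 0.54, 0.42 and 0.35 (adjusted p = 0.0167, 0.0132 and 0.0147). These lie within the range of the 9 enzyme genes.

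Of 16 genes for serine transport and other uses of serine, 12 were tested, 2 rose and 0 fell, with a median log2 fold change of 0.020. The shares over all genes tested were 10.9% higher and 9.27% lower. The neutral amino acid transporter genes *Slc1a5* and *Slc38a1* rose by log2 fold changes of 0.23 each (adjusted p = 0.0324 and 0.0335 from limma). Serine racemase *Srr* (0.26, adjusted p = 0.0898) and *Serinc1* (-0.13, adjusted p = 0.135) did not pass, and the palmitoyltransferase genes *Sptlc1* and *Sptlc2*, which use serine for sphingolipids, had log2 fold changes of -0.083 and 0.042.

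In the list of ATF4 and MYC and of genes known to respond to ATF4, 3 of 8 genes rose and 1 fell. Beside this, 10.9% of all genes tested were higher and 9.27% lower. *Myc* stood at 54.7 and 52.3 FPKM in Control, against 79.1 and 70.1 FPKM with G-CSF (log2 fold change 0.48, adjusted p = 0.0177 from limma), and *Atf4* at 231 and 222, then 273 and 266 FPKM (log2 fold change 0.25, adjusted p = 0.0221). Asparagine synthetase *Asns* rose by a log2 fold change of 0.50 (adjusted p = 0.0274). *Sesn2* fell by 0.31 on the log2 scale (adjusted p = 0.0231), and the other 4 did not pass. Of these, *Chac1* had a log2 fold change of 0.51 (adjusted p = 0.186), *Atf5* of -0.29 (adjusted p = 0.0668), *Ddit3* of -0.37 (adjusted p = 0.0724) and *Trib3* of -0.0018 (adjusted p = 0.987). *Mki67* rose by a log2 fold change of 0.28 (adjusted p = 0.0253), and *Rrm2*, *Mcm5*, *Mcm2* and *Ccnb1* of the proliferation list rose by 0.47, 0.37, 0.45 and 0.40 (adjusted p = 0.0108, 0.0132, 0.0139 and 0.0147). The log2 fold changes of the proliferation genes ran from 0.20 to 0.47, beside 0.17 to 0.65 for the 9 enzyme genes, and the 2 ranges overlap.

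**Figure D4:**
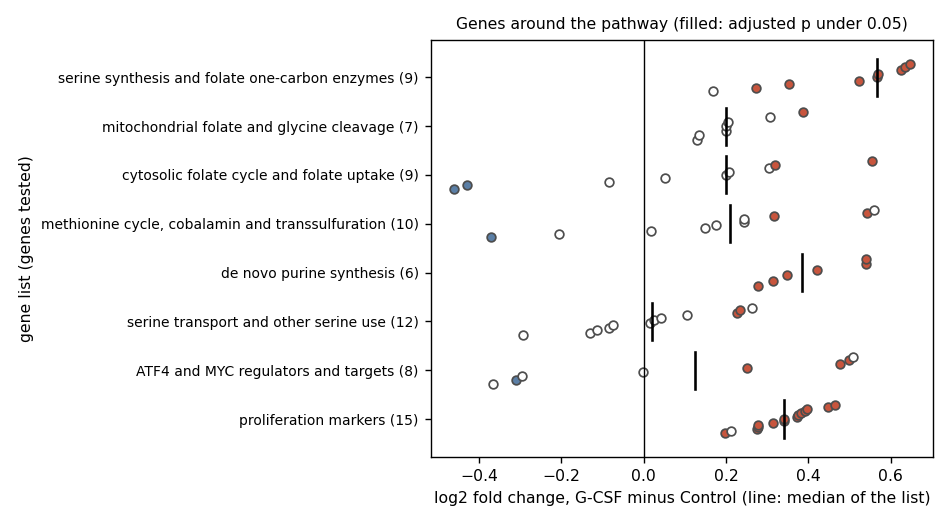
Log2 fold change, G-CSF minus Control, of every tested gene of the enzyme group and of 7 lists around it, with filled points for an adjusted p under 0.05 (red for higher, blue for lower), open points for the rest and a black line at each list's median. The enzyme genes have the median furthest to the right (0.57), followed by *de novo* purine synthesis (0.39) and the proliferation markers (0.34). Blue points appear in the cytosolic folate, methionine and ATF4 lists. The enzyme genes and the lists were chosen with earlier results of these data known.

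Since most of the enzyme genes moved together, the bases before their start sites were compared. RefSeq start sites of GRCm38 gave 10 windows of 250 bases for the 9 genes, 2 of them for *Psat1*. The letters CCAAT, or ATTGG on the other strand, occurred in 7 of the 10 windows and in 33.85% of 32851 windows of all genes. The window of *Shmt2* had none of these and held instead GCATGCGC, the core letters bound by the factor NRF1, and overlapping it GCGCATGC, the same letters on the other strand, which occurred in 2.256% of all windows. The ATF4 composite element TGATGNAA (N is any base, TTNCATCA on the other strand), the cyclic AMP element TGACGTCA and the E-box CACGTG occurred in 0 of the 10 windows and in 3.452%, 1.546% and 6.021% of all windows. The *Psat1* window at chr19:15924623-15924872, which is not shown, and the window of *Mthfd1l* held none of these motifs. The motifs were picked after the sequences had been seen, and no other matches overlap. A match is not evidence of binding, nor is a missing match in so few windows evidence of none. Binding was not tested. The windows of both hydroxymethyltransferase genes, of *Psat1*, with 2 CCAAT matches, and of *Mtr*, the gene that did not pass the test, are shown 5′ to 3′ with the matches in capitals. Those of *Shmt1* and *Psat1* begin inside the GENCODE span of the gene, at a start site downstream of its outermost end.
Shmt2 (chr10:127522445-127522694, minus strand): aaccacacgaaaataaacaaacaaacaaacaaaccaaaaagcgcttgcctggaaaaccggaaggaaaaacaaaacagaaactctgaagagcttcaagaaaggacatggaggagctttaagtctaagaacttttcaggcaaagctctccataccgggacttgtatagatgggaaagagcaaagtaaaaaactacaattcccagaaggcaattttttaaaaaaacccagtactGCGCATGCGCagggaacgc
Shmt1 (chr11:60811266-60811515, minus strand): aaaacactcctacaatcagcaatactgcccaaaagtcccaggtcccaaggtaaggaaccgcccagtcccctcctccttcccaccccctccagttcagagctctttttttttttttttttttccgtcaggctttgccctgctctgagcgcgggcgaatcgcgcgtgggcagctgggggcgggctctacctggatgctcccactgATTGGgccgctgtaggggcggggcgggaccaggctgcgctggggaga
Psat1 (chr19:15925060-15925309, minus strand): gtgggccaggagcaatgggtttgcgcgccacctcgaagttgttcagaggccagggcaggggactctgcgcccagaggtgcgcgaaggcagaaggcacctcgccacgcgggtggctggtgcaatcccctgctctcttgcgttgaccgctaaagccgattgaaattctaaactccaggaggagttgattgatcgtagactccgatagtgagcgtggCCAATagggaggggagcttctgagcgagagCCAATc
Mtr (chr13:12258114-12258363, minus strand): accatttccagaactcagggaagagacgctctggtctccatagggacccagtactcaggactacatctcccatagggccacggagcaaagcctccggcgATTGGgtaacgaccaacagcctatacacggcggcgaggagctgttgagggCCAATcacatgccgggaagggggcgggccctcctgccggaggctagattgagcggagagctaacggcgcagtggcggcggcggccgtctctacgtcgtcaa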

How the data were processed

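RNA from 2 Control and 2 G-CSF cultures was made into stranded mRNA libraries and read over 75 bases from a single end. The authors deposited 1 table of FPKM per library, which was used without rescaling. The submitters' processing notes name TopHat2 2.0.13, Bowtie2 2.2.3, SAMtools 0.1.19, Cufflinks 2.2.1 and the build mm10. The annotation is not given in the sources used here, and FPKM as the unit was inferred from the values and from Cufflinks.

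Groups and replicate numbers were taken from the sample labels. Genes with a mean of at least 0.5 FPKM over the 4 libraries were tested on log2(FPKM + 0.1) with limma (lmFit, eBayes with trend = TRUE, two-sided, no replicate block), so that the fold change of low genes is understated. The spread is that between cultures, of which the labels say no more. The enzyme genes, the lists and the filter were chosen with earlier results of these data known. Named genes are the 9 enzymes, the 4 genes with the smallest p in each pathway list, *Tyms*, *Atf4*, *Myc* and *Mki67*; some genes that the rule names are not reported here. Other genes named (*Gldc*, *Cbs*, *Cth*, *Sptlc1*, *Sptlc2*, *Atf5*, *Chac1*, *Ddit3*, *Trib3*) were chosen after their values were seen. Of the markers, lists for B cells (1 of 1 tested gene lower), T cells (1 of 3 lower), erythroid cells (0 of 1 called), megakaryocytes (0 of 3 called), stromal cells (1 of 1 lower) and monocytes (1 of 4 higher, 1 lower) were also counted.

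Depth was estimated from genes with a single transcript of GENCODE M21 (GRCm38, the same assembly as mm10) and up to 8 reads, with the length shortened by 210 bases. With these settings 65.3% to 70.7% of the values came out whole to within 0.05 reads. Estimated reads assume the principal transcript. Of the 24346 gene names, 23310 were found in GENCODE M21, whose positions are given. Promoter windows came from RefSeq (GRCm38.p6). The fit was tested on simulated data with 200 of 11717 genes changed. At a simulated log2 fold change of 0.5 it recovered 131 of the 200, with 14 wrong calls. At a simulated log2 fold change of 1 it recovered 182, with 7 wrong calls. The alternatives were 2 pseudocounts, 2 filters, 2 scalings, no variance trend, the replicate block, and leaving out each library. The tools were R 4.3.3, limma 3.58.1, python 3.11.15, numpy 2.4.6, pandas 2.3.3 and matplotlib 3.10.9.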

Additional observations from a re-analysis of the deposited data

How the results depend on the processing

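All 9 enzyme genes kept a positive log2 fold change under the 12 alternatives, and the 8 calls held under both pseudocounts, both filters, both scalings and the replicate block. Without the variance trend, 0 of the 9 were called (8 at an unadjusted p under 0.05), and 18 genes were higher and 9 lower in all (18 and 9 with a fold over 2). With a library left out, which leaves 1 library in a group that is assumed to vary like the other group and 1 residual degree of freedom, 0 of the 9 were called (8 at an unadjusted p under 0.05 in each). Over all genes 18 to 27 were then higher and 14 to 25 lower (18 to 26 and 14 to 22 with a fold over 2), with fewer libraries behind the fit. Of the other lists, in these fits and without the trend, genes were called in those of neutrophil precursors (2 to 4) and, without either G-CSF replicate, of maturing neutrophils (3 and 4). The median log2 fold change of the 9 genes was then 0.44 to 0.61, lowest without Control replicate 1. Those of *Phgdh* and *Shmt1*, whose Control replicates differed most, ranged from 0.44 to 0.70 and from 0.43 to 0.70. That of *Mtr* ranged from 0.090 to 0.25. Genes with a fold over 2 numbered 28 higher and 38 lower with a pseudocount of 1 FPKM, and 30 and 52 with a mean of at least 2 FPKM, against 51 and 87. Without any filter 882 genes were higher and 744 lower at an adjusted p under 0.05, against 1281 and 1086, and *Ahcyl2* was not called. The difference in log2 ratio of *Shmt2* to *Shmt1* ranged from -0.070 to 0.21 with a library left out, below 0 without Control replicate 2 and without G-CSF replicate 2, and that of *Mthfd2* to *Mthfd1* from -0.16 to 0.0019, the latter without Control replicate 1. The cause was not tested. Scaling moved the median of all genes by at most 0.0076 on the log2 scale. Deviations from the group means correlated weakly between same-numbered libraries (r = 0.147 across genes) and the labels state no pairing. The replicate block gave 1576 genes higher and 1485 lower, and the 8 enzyme genes were called with it, as were *Dld* and *Mmadhc*. With the block, 2 genes of the mitochondrial folate list and 4 of the methionine list, *Mmadhc* among them, were higher. *Dld* was also called with a pseudocount of 0.01 FPKM and with a mean of at least 2 FPKM. *Mtr* held 1069 to 1532 estimated reads a library and *Psph*, which was called, 170 to 311. Their standard errors were 0.0812 and 0.0745, and their log2 fold changes 0.17 and 0.65. Whether depth set *Mtr* apart was not tested.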
